A study of Mus musculus with 11 samples.

Results

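The *Grm6*, *Gpr179*, *Nyx*, *Lrit3*, *Gnao1*, *Gng13*, *Pcp2*, *Rgs7*, *Rgs11* and *Prkca* genes, which carry the glutamate response of retinal ON-bipolar cells or mark the rod bipolar cell, were followed in whole-eye RNA from mice with and without the microRNA miR-211. They were chosen by name as components of the mGluR6 cascade or as rod bipolar genes, with the channel gene *Trpm1* left out of the list. They make up 10 of the 38393 genes in the count files. All 10 reached 1 CPM, a unit of counts scaled by the total of each library, in 5 or more libraries and so were among the 15767 genes that were tested.

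RNA was sequenced from eyes of 5 wild type (WT) and 6 miR-211-KO (KO) mice on the C57BL/6 background (C57Bl/6J in the study's methods). The eyes held retina, retinal pigment epithelium (RPE), choroid, sclera and ciliary body, and both groups had lens and cornea taken off. The KO line carries a deletion of a short segment with the precursor of miR-211, and the controls were littermates of the same age. All animals were 1–2 months old. According to the study's methods the KO animals were males, whereas the WT group held males and females, so that sex and genotype are partly confounded. The labels do not give the sex of each library, and it was not fitted. Each library was given its group by its label. The labels do not say that each came from a separate animal, but the study calls the libraries biological replicates and counts 5 WT and 6 KO animals. The p-values measure the spread between these libraries.

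An ON-bipolar cell receives glutamate from photoreceptors through mGluR6, a receptor that acts on a Go-type G protein and thereby keeps the cation channel TRPM1 closed in the dark. When light lowers glutamate release, GTPase-activating proteins of the RGS family end the G protein signal and the channel opens. Leucine-rich repeat proteins and an orphan receptor hold parts of this machinery at the dendritic tips. Loss of several of these genes causes complete congenital stationary night blindness.

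MiR-211 is encoded in an intron of *Trpm1*, and its seed (bases 2 to 8 from the 5′ end) is the part that pairs with target transcripts. The mature sequences of miR-211 and of its relative miR-204, from RefSeq on GRCm38.p6, are shown because both share that seed, which is in capitals.
mmu-miR-211-5p: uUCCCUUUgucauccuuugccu
mmu-miR-204-5p: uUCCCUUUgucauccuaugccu
MiR-211-5p lies at chr7:64205831-64205852 and miR-204-5p at chr19:22750610-22750631, each on the plus strand. Counted from the 5′ end, the single difference between them is U17A, with the base of miR-211 first. The match to the seed in a transcript reads AAAGGGA, and among the longest annotated 3′ untranslated regions (UTRs) of the 10 genes it occurred in that of *Grm6* alone. For all 14496 tested genes with an annotated 3′ UTR the share with a match was 16.5%, and the median UTR length was 1197 bases against 1312.5 bases for the 10 genes. The *Grm6* match spans chr11:50865844-50865850 on the plus strand of GRCm38, bases 1186 to 1192 of a UTR of 1548 bases, and is shown in capitals within 30 bases of that UTR.
Grm6 site: aactcatttttgAAAGGGAgctgcccttca
The presence of these letters is a description of the sequence and shows no binding. Genes with a match had a median log2 fold change between KO and WT of 0.02, and genes without one of -0.0032. The promoters of 9 genes could be read from the RefSeq table as windows of 250 bases before to 50 bases after the start. None of them held TAATCC or its reverse complement GGATTA, the core bound by the photoreceptor and bipolar cell factors Otx2 and Crx, which 8.14% of 27025 gene windows held.

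Between 20282241 and 36317673 counts per library were assigned to genes. The 10 genes had from 270 to 10983 counts in a library, with *Rgs7* and *Nyx* at the low end (270 to 606 and 277 to 559 counts) and *Gnao1* and *Prkca* at the high end. *Mir211* itself had 0 counts in all 11 libraries and thus gave no check of the genotype labels. Lens crystallin genes took 13.1% of the counts of WT replicate 4 and 3.03% of those of KO replicate 3, and at most 0.428% of the counts elsewhere.

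The first question was whether the loss of miR-211 went along with another level of the transcripts of this pathway. None of the 10 genes passed the test between KO and WT (edgeR likelihood-ratio test, adjusted p = 1.00 for each gene), and none had an unadjusted p under 0.05. Of all genes tested, 0.00634% (1 gene) passed an adjusted p of 0.1 in the same fit and 2.09% (330 genes) an unadjusted p of 0.05. The 1 gene was *Xist*, the transcript of the inactive X chromosome, at 736 CPM in WT and 0.987 CPM in KO on average. With the quasi-likelihood test of edgeR none of the 10 genes and none of all genes passed an adjusted p of 0.1, and with DESeq2 none of the 10 genes and 2 of all genes did. In whole-eye RNA fewer cells of a type and less RNA per cell cannot be told apart, and this holds for every level given here.

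*Grm6*, which encodes mGluR6 itself, lies on chromosome 11 of GRCm38 from 50850685 to 50866208 on the plus strand. It was read at 145.6, 122.5, 160.2, 137.3 and 155.4 CPM in the 5 WT libraries and at 119.1 to 161.7 CPM, with a median of 139.5 CPM, in the 6 KO libraries. The KO libraries thus covered the whole WT range, and both the lowest and the highest library were KO. The log2 fold change was -0.04 ± 0.12 (SE), with a 95% interval from -0.28 to 0.20, or 0.826- to 1.15-fold. With other fits its log2 fold change ran from -0.17 (rod scaling) to 0.046 (within the age series of libraries described below). *Grm6* is the gene with the seed match shown above. According to the study miR-204, which has the same seed, was expressed in the KO retina. A part of the match in the level of *Grm6* was not tested.

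*Gpr179*, an orphan receptor that anchors RGS proteins at the dendritic tip, lies on chromosome 11 from 97332109 to 97352077 on the minus strand. Its WT values were 142.6, 139.4, 214.2, 178.1 and 203.1 CPM. The KO values ran from 136.1 to 234.4 CPM with a median of 167.7 CPM. In each genotype the libraries fell into a lower and a higher part, and the means of 175 ± 34.1 CPM (SD, n = 5) and 175 ± 39.1 CPM (SD, n = 6) differed by far less than these SDs. The log2 fold change was -0.0033 ± 0.19 (SE), with a 95% interval from -0.37 to 0.36.

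*Nyx* encodes nyctalopin, a leucine-rich repeat protein on the bipolar dendrite, and lies on the X chromosome from 13466110 to 13489313 on the plus strand. Its WT values were 13.55, 13.20, 21.98, 15.20 and 18.69 CPM, and those of KO ran from 12.34 to 18.91 CPM with a median of 15.95 CPM. WT replicate 3 was the highest of all 11 libraries and KO replicate 3 the lowest, with the other libraries intermixed. KO minus WT gave -0.08 ± 0.17 (SE) on the log2 scale, from -0.42 to 0.26.

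*Lrit3*, a leucine-rich repeat protein that is needed to assemble nyctalopin and TRPM1 at this synapse, lies on chromosome 3 from 129787881 to 129804030 on the minus strand. It was read at 21.39, 26.89, 33.95, 25.94 and 37.14 CPM in WT and at 24.42 to 34.72 CPM, median 30.43 CPM, in KO. All KO libraries lay inside the WT range. On the log2 scale KO differed from WT by 0.06 ± 0.17 (SE), from -0.27 to 0.38.

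The G protein genes came next. *Gnao1*, for the Go alpha subunit that is also used by most other neurons, lies on chromosome 8 from 93809966 to 93969388 on the plus strand. The WT libraries gave 244.4, 294.4, 358.1, 303.0 and 356.3 CPM, and KO libraries 284.6 to 343.9 CPM with a median of 311.9 CPM. The WT libraries were spread more widely than the KO libraries, whose values all fell within them. Its log2 fold change was 0.01 ± 0.14 (SE), from -0.27 to 0.29.

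*Gng13*, a gamma subunit found with Go in ON-bipolar cells, lies on chromosome 17 from 25717171 to 25719406 on the plus strand. WT libraries were read at 31.86, 26.60, 25.91, 20.72 and 31.05 CPM and KO libraries from 22.35 to 35.94 CPM, median 29.74 CPM. The lowest value was that of WT replicate 4, and 3 KO libraries exceeded the highest WT library. The log2 fold change was 0.12 ± 0.17 (SE), and its interval from -0.21 to 0.45 reached 1.36-fold, the highest upper bound among the 10 genes.

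*Pcp2*, a modulator of Go that is abundant in rod bipolar cells and Purkinje cells, lies on chromosome 8 from 3623371 to 3625545 on the minus strand. Its WT values were 80.38, 75.22, 81.28, 64.72 and 86.05 CPM. KO libraries ranged from 66.42 to 110.8 CPM with a median of 86.37 CPM, so that 3 of 6 were above the highest WT library and the rest within the WT range. The log2 fold change was 0.14 ± 0.15 (SE), from -0.15 to 0.44, with an unadjusted p of 0.346, the lowest among the 10 genes (adjusted p = 1.00, edgeR likelihood-ratio test).

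*Rgs7* and *Rgs11* encode the GTPase-activating proteins that end the Go signal in the dendrite. *Rgs7* (chromosome 1, 175059087 to 175492500, minus strand) was read at 12.59, 14.51, 19.26, 14.10 and 16.08 CPM in WT and from 13.56 to 16.65 CPM, median 14.95 CPM, in KO. *Rgs11* (chromosome 17, 26202951 to 26211324, plus strand) was read at 92.06, 86.49, 103.8, 95.52 and 99.31 CPM in WT and from 76.60 to 120.8 CPM, median 86.63 CPM, in KO. The pair differed in where the spread lay: the KO values of *Rgs7* fell inside those of WT, whereas the WT values of *Rgs11* fell inside those of KO, where 3 libraries lay below and 2 above every WT library. The log2 fold changes were -0.02 ± 0.14 (SE; -0.29 to 0.25) and -0.04 ± 0.14 (SE; -0.31 to 0.23).

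*Prkca*, for protein kinase C alpha, the usual marker of rod bipolar cells, lies on chromosome 11 from 107933387 to 108343928 on the minus strand. It was read at 228.6, 291.0, 320.5, 277.2 and 316.2 CPM in WT. KO libraries lay between 285.5 and 331.7 CPM with a median of 308.5 CPM, and WT replicate 1 was the lowest of all libraries. A log2 fold change of 0.11 ± 0.13 (SE) was found, from -0.15 to 0.36.

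**Figure D1:**
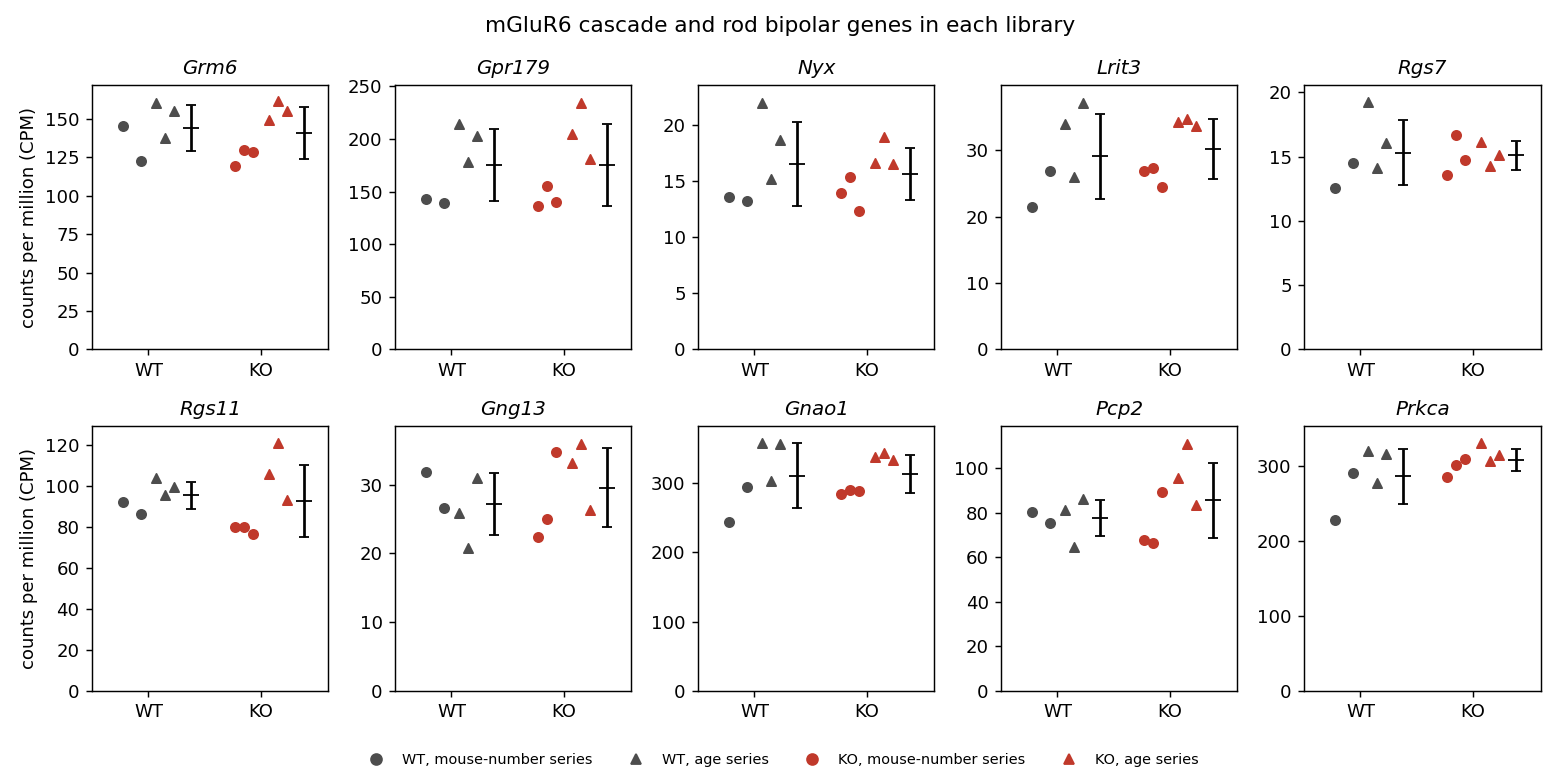
Library-scaled counts (CPM, vertical axes from 0) of the 10 genes in each of 5 WT (grey) and 6 KO (red) libraries; circles and triangles are the mouse-number and age series of libraries, and the bars give the mean and SD of each genotype. The genotypes overlap for every gene, and the triangles lie above the circles for *Gpr179*, *Rgs11* and *Gnao1*.

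Seen over the list, 5 genes had a positive and 5 a negative log2 fold change, with a median of 0.0035 against 0.0027 over all genes tested. No gene had all libraries of one genotype above all of the other, which was so for 0.184% of all genes. The 95% intervals of the 10 genes ran from 0.748-fold (*Nyx*) to 1.36-fold (*Gng13*), and changes within a gene's interval could not be told from none at this spread. Across the 11 libraries the highest value was between 1.36 times (*Grm6*) and 1.78 times (*Nyx*) the lowest. The SD of log2 CPM within genotypes ranked from the 30.3rd percentile of all tested genes for *Prkca* to the 72.8th for *Gpr179*.

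Reads from both strands were counted together, since the library kit does not mark strand. Exons of *Pcp2* share 941 bases with *Pet100* on the opposite strand, those of *Grm6* 599 bases with *Gm12660*, and those of *Gng13* 399 bases with *Chtf18*. Smaller overlaps were 284 bases for *Gnao1*, 138 for *Rgs11* and 30 for *Prkca*, and in these stretches the reads of the partners cannot be told apart. The overlaps of *Pcp2* and *Gng13* are large beside their effective transcript lengths of 732 and 484 bases, although the measures are unlike. The overlaps count exon bases of all annotated transcripts of a gene, whereas the effective length is an estimate of RSEM. The overlap is thus no share of that length. How much of the level of these 2 genes came from their partners was not tested.

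Levels of different genes were compared on the FPKM scale, which scales counts by transcript length and library total. By median, the order in WT was *Pcp2* (115 FPKM), *Gnao1* (106), *Gng13* (56.1), *Rgs11* (52.7), *Grm6* (43.3), *Prkca* (34.2), *Gpr179* (17.9), *Lrit3* (16.2), *Rgs7* (10.5) and *Nyx* (2.64). The order in KO was the same, with medians of 126, 117, 64.9, 49.8, 43.9, 37.8, 19.9, 18.975, 11.2 and 3.15 FPKM. By median the small modulator *Pcp2* and the G protein subunits *Gnao1* and *Gng13* were thus read at higher levels than the receptor gene *Grm6*. *Gpr179*, *Lrit3* and *Nyx* were read at lower levels than *Grm6*. The levels of *Pcp2* and *Gng13* may include reads of the genes that they overlap. In both genotypes the ranges did not overlap between *Gnao1* and *Gng13*, between *Prkca* and *Gpr179*, and between *Rgs7* and *Nyx*. *Lrit3* and *Rgs7* overlapped in WT but not in KO, and the other pairs of neighbours overlapped in both genotypes. Within single libraries the order was firmer, since *Rgs11* was above *Grm6*, *Grm6* above *Prkca* and *Lrit3* above *Rgs7* in 11 of 11 libraries, and *Gpr179* was above *Lrit3* in 10 of 11. *Pcp2* was above *Gnao1* in 4 of 11 libraries and *Gng13* above *Rgs11* in 7 of 11, so the order within these pairs is not settled. The FPKM of *Grm6*, for example, was 43.34, 37.02, 51.08, 35.54 and 48.92 in WT and ran from 35.79 to 51.31 in KO. *Nyx* had the lowest FPKM in every library, from 2.39 to 4.46.

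**Figure D2:**
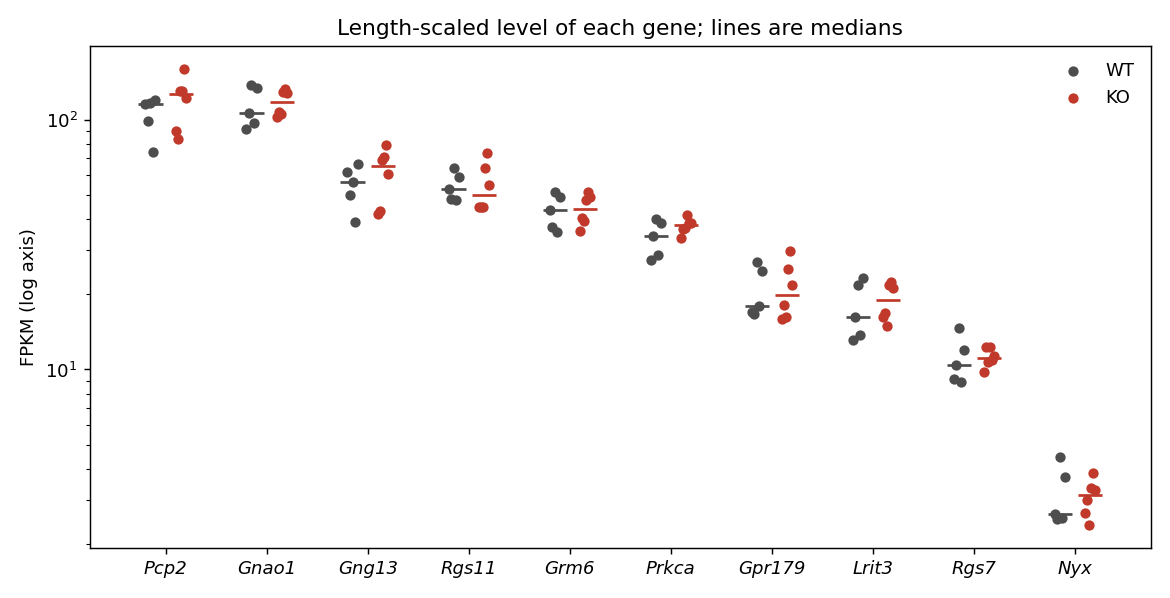
FPKM of the 10 genes on a log axis, ordered by WT median, with 1 point for each of 5 WT (grey) and 6 KO (red) libraries and lines at the medians. The order of medians is the same in both genotypes, from *Pcp2* (115 and 126 FPKM) down to *Nyx* (2.64 and 3.15 FPKM).

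*Trpm1*, the channel that the cascade closes and the host gene of miR-211, was read at 330.7 to 495.6 CPM in WT and 412.7 to 464.9 CPM in KO, with a log2 fold change of 0.0094 ± 0.15 (SE) (edgeR likelihood-ratio test, adjusted p = 1.00). The other cascade partners that were listed are the beta subunits *Gnb3* and *Gnb5* and the RGS anchors *Rgs7bp* and *Rgs9bp*. None of these 5 genes passed the test in either direction, 3 had positive and 2 negative log2 fold changes, and the median was 0.0094. Their extremes were *Gnb3* at -0.17 ± 0.29 (SE) and *Rgs9bp* at 0.12 ± 0.17 (SE). Of 9 partners at the photoreceptor synapse, which include the presynaptic calcium channel genes *Cacna1f*, *Cacna2d4* and *Cacnb2* and the adhesion genes *Elfn1*, *Elfn2* and *Egflam*, none passed either. They ranged from -0.18 ± 0.16 (SE) for dystroglycan, *Dag1*, to 0.14 ± 0.17 (SE) for *Lrit1*.

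The presence of bipolar cell RNA was checked with 10 further markers of rod and ON-bipolar cells. All of them passed the filter on low counts, among them the bipolar transcription factor *Bhlhe23*, at 21.3 ± 1.62 CPM in WT (SD, n = 5) and 21.1 ± 4.26 CPM in KO (SD, n = 6). None of the 10 passed the test between genotypes. The median of their log2 fold changes was -0.01, and the highest was 0.10 ± 0.11 (SE) for *Car8*. None of 6 markers of OFF and other cone bipolar cells passed, with extremes of -0.23 ± 0.19 (SE) for *Prkar2b* and 0.17 ± 0.16 (SE) for *Tacr3*. Markers of other cells of the eye (rods, cones, amacrine, horizontal and ganglion cells, Müller glia, RPE, lens, muscle, adipocytes, cornea and conjunctiva) held no gene that passed between genotypes. The median log2 fold change was 0.11 for 10 rod markers, -0.56 for 6 muscle markers and -2.01 for 5 adipocyte markers, of which 3 passed without KO replicate 1 (median -3.81). It was 0.26 for 6 ganglion cell markers, and 0.02 without WT replicate 1. For 13 tested lens genes it was -2.36, and 6.43 without WT replicate 4, the library with the most crystallin counts.

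Part of the spread within each genotype followed a division of the libraries that the labels do not give. The column names of the study's spreadsheet are of 2 kinds, one with mouse numbers and one with ages, and each library was matched to its column by proportional counts over 63 genes. The mouse-number series held WT replicates 1 and 2 and KO replicates 1 to 3, and the age series held WT replicates 3 to 5 and KO replicates 4 to 6. What else set the series apart is not stated, so no cause is named for a difference between them. The comparison was added after the data had been seen, with genotype as a second term of the fit.

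Between the series, 6 of the 10 genes were higher in the age series with an adjusted p under 0.1 and none was lower, while 14.6% of all genes tested were called higher and 21.7% lower (36.3% in either direction). With libraries scaled to the rod markers instead of by TMM, none of the 10 was called. With TMM scaling all 10 log2 differences were positive, with a median of 0.26 against -0.0041 over all genes, and with rod scaling 5 were. The genes called were *Grm6*, *Gpr179*, *Lrit3*, *Nyx*, *Gnao1* and *Rgs11*.

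*Gpr179* was read at 136.1 to 154.9 CPM in the 5 libraries of the mouse-number series and at 178.1 to 234.4 CPM in the 6 of the age series. The series did not overlap, and the difference was 0.51 ± 0.11 (SE) on the log2 scale, or 1.43-fold (edgeR likelihood-ratio test, adjusted p = 7.7e-05). *Lrit3*, at 21.39 to 27.29 against 25.94 to 37.14 CPM, differed by 0.40 ± 0.11 (SE) (adjusted p = 0.0027), and *Nyx*, at 12.34 to 15.36 against 15.20 to 21.98 CPM, by 0.39 ± 0.12 (SE) (adjusted p = 0.0084). In these last genes the lowest library of the age series, WT replicate 4, lay among the mouse-number libraries.

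*Rgs11* was read at 76.60 to 92.06 CPM in the mouse-number series and 93.10 to 120.8 CPM in the age series, again without overlap (0.31 ± 0.10 (SE), edgeR likelihood-ratio test, adjusted p = 0.0086). *Grm6* differed by 0.25 ± 0.09 (SE) (adjusted p = 0.033), with means of 129 ± 10.2 CPM (SD, n = 5) and 153 ± 8.94 CPM (SD, n = 6) in the mouse-number and age series. *Gnao1*, at 244.4 to 294.4 against 303.0 to 358.1 CPM, did not overlap but had the weakest call (0.28 ± 0.12 (SE), adjusted p = 0.065). Without any one of WT replicates 1, 3 and 5 or KO replicates 1, 4, 5 and 6, its adjusted p rose to between 0.105 and 0.185 in edgeR's test. The call of *Grm6* was lost without WT replicate 2, KO replicate 1 or KO replicate 5, with adjusted p of 0.103, 0.108 and 0.103. Leaving out single libraries gave 4 to 7 genes called, with 4 without KO replicate 1 or KO replicate 5.

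The other 4 genes did not pass between the series (edgeR likelihood-ratio test). *Pcp2* had a log2 difference of 0.20 ± 0.14 (SE) (adjusted p = 0.260), and it passed with WT replicate 4 left out (0.28, adjusted p = 0.053). *Prkca* had 0.15 ± 0.12 (SE) (adjusted p = 0.369), *Rgs7* 0.13 ± 0.12 (SE) (adjusted p = 0.438) and *Gng13* 0.04 ± 0.16 (SE) (adjusted p = 0.879). Whether these genes differed less than the 6 that passed was not tested. Non-overlapping series were seen for 3 of the 10 genes, *Gpr179*, *Rgs11* and *Gnao1*, and for 11.1% of all genes tested.

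**Figure D3:**
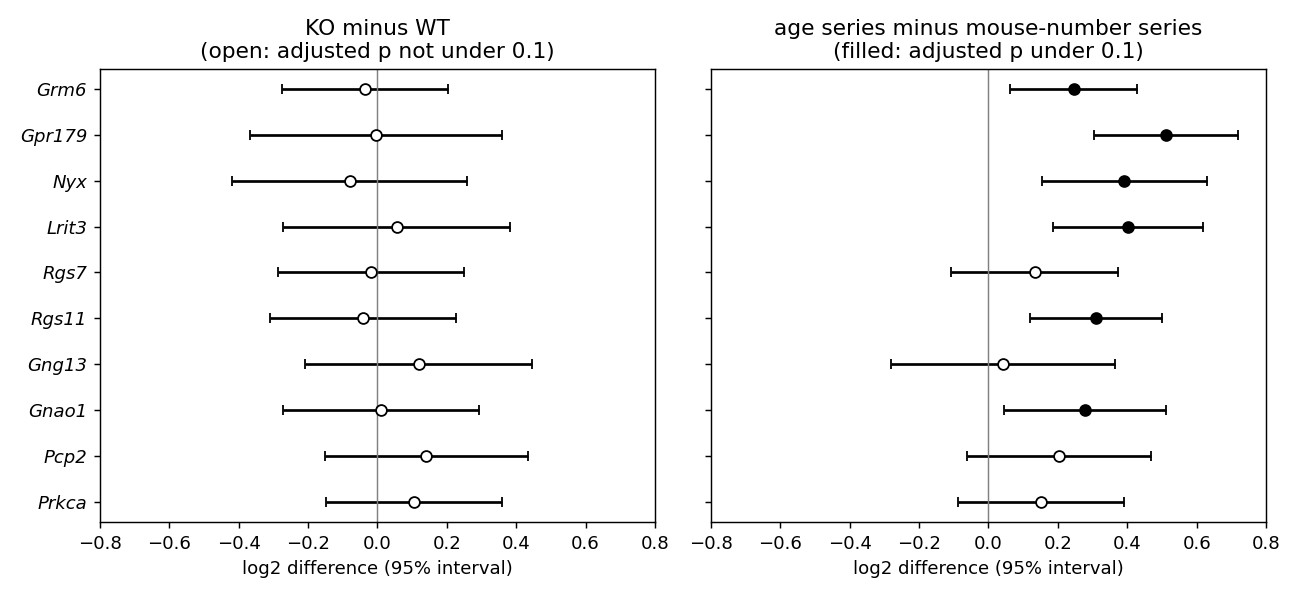
Log2 difference of each gene with its 95% interval between genotypes (left) and between library series with genotype as a term (right); filled points have an adjusted p under 0.1. All intervals include 0 on the left, and 6 of 10 points are filled on the right, from 0.25 (*Grm6*) to 0.51 (*Gpr179*), with TMM scaling. With rod scaling none would be filled.

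No dependence of the difference between KO and WT on the series was detected. An interaction term was called for none of the 10 genes and had an unadjusted p under 0.05 for none of them, against 0.019% and 2.71% of all genes. With the series as a term the comparison of genotypes also called none of the 10 genes, and 0.0634% of all genes.

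Other lists of retinal genes differed in how many members passed between the series. The calls of all lists are with TMM scaling, where 14.6% of all genes tested were called higher and 21.7% lower. With rod scaling these shares were 0.755% and 43.6%. Of the 5 cascade partners 2 were higher in the age series and none was lower, *Rgs7bp* by 0.46 ± 0.16 (SE) (edgeR likelihood-ratio test, adjusted p = 0.020) and *Gnb5* by 0.31 ± 0.13 (SE) (adjusted p = 0.065). *Gnb3*, whose product pairs with that of *Gng13*, had a difference of 0.0037 ± 0.30 (SE) (adjusted p = 0.994). This is an average over genotypes that may cover unlike differences in WT and KO. The interaction term of *Gnb3* was 1.31 on the log2 scale (edgeR likelihood-ratio test, unadjusted p = 0.0056, adjusted p = 0.9996). Of the 9 synapse partners 6 were higher, among them *Elfn2* by 0.53 ± 0.11 (SE), and *Dag1* was lower by -0.34 ± 0.12 (SE) (adjusted p = 0.020, edgeR likelihood-ratio test). Among other rod and ON-bipolar markers 4 of 10 were higher, among them *Bhlhe23* and *Tpbg*, with a median over the 10 of 0.15. Of 6 markers of OFF and other cone bipolar cells 4 were higher and 1, *Prkar2b*, was lower. Of 6 amacrine markers 5 were higher with a median of 0.31, and of 10 rod markers 1 was higher with a median of 0.20. Of 6 ganglion cell markers 2 were higher with a median of 0.50. Their summed level was 167 CPM in WT replicate 1 and 483 to 508 CPM in the other mouse-number libraries. In the age series it was 492 to 701 CPM. The part of WT replicate 1 in this median was not tested. None of 8 cone, 3 horizontal cell and 5 Müller glia markers passed, with medians of 0.03, 0.14 and 0.05.

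Markers of muscle, fat and the ocular surface were lower in the age series where they passed. All 6 skeletal muscle markers were lower in the age series, with a median of -1.57 and a summed level of 1941 to 9021 CPM in the mouse-number and 771 to 5182 CPM in the age series. All 5 adipocyte markers were lower, with a median of -2.86 and summed levels of 10.6 to 415 against 9.14 to 117 CPM. Of 4 cornea and conjunctiva markers 2 were lower, with summed levels of 2194 to 8178 against 1077 to 7052 CPM. Of 13 lens and 4 RPE genes tested none passed, with medians of -1.04 and 0.05. No marker of these lists was at 0 in every library. The 10 genes of the pathway together made up 1013 to 1120 CPM in the mouse-number and 1132 to 1382 CPM in the age series. The part of the other tissues in the result was not tested.

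**Figure D4:**
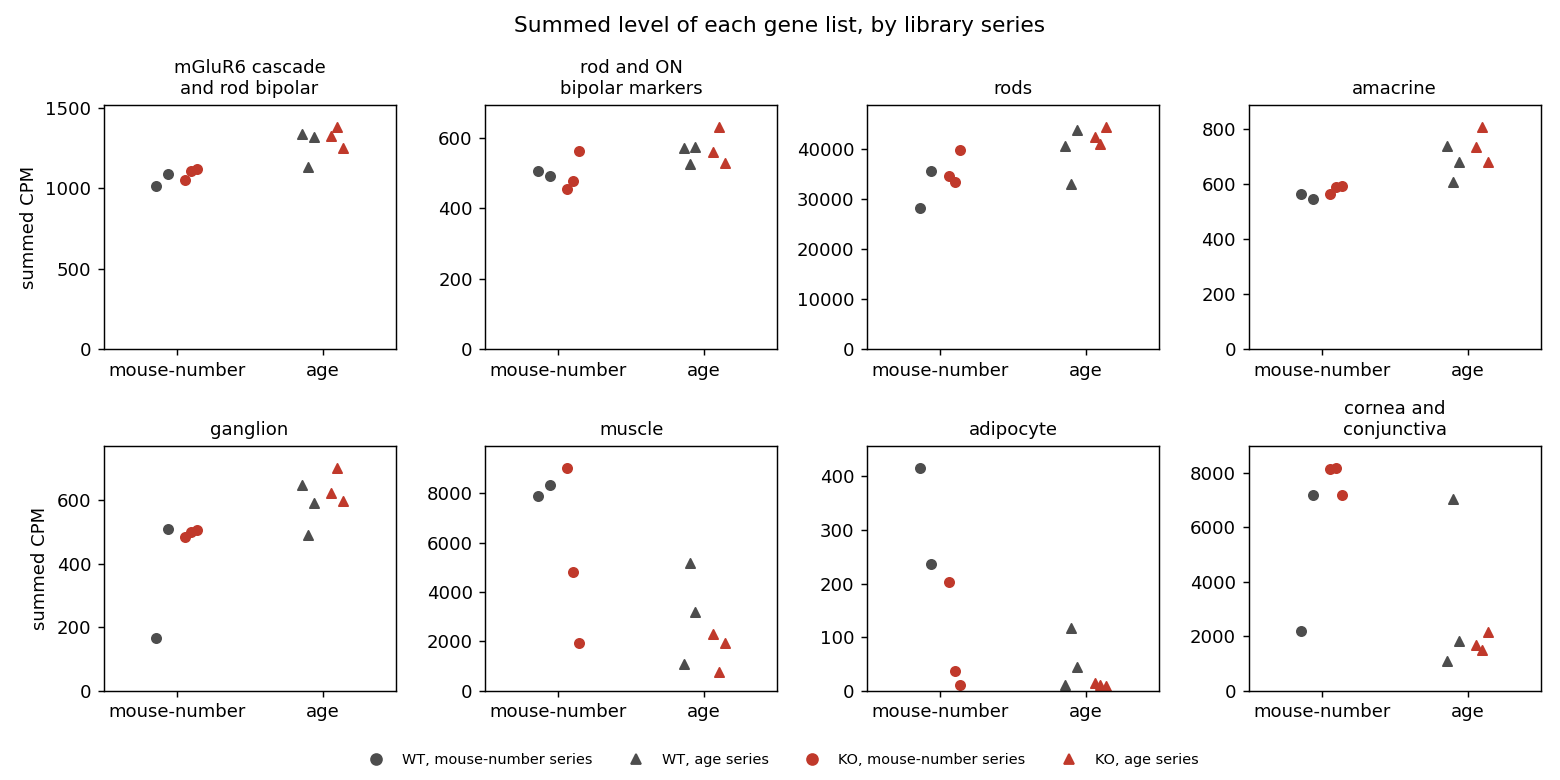
Summed CPM (vertical axes from 0) of the 10 pathway genes and of 7 marker lists in each library of the mouse-number (circles) and age (triangles) series, WT in grey and KO in red. The pathway sum is 1013 to 1120 CPM in the mouse-number and 1132 to 1382 CPM in the age series, and the muscle sum 1941 to 9021 against 771 to 5182 CPM.

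Rod scaling set the libraries to the summed counts of the rod markers, and the median difference of the 10 genes between the series was then -0.02. This scaling moved the median of all genes to -0.28, and 0.755% of all genes were called higher and 43.6% lower. The log2 difference of *Gpr179* was 0.23 in place of 0.51 (adjusted p = 0.205, edgeR likelihood-ratio test), and those of *Grm6*, *Pcp2*, *Prkca*, *Rgs7* and *Gng13* turned negative. In the comparison of KO with WT, rod scaling moved the median of all genes to -0.13 and that of the 10 genes to -0.11, with all 10 log2 fold changes below 0 and none called.

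Transcript length also went with the difference between series. Genes were ranked by effective length into 4 groups of equal size. In the shortest group the median log2 difference was -0.13 and 5.20% of genes were called higher, and in the longest group it was 0.11 with 26.9% called higher. Of the 10 genes *Gpr179* (8406 bases), *Prkca* (8327 bases) and *Nyx* (5130 bases) belong to the longest group, and *Gng13* (484 bases), *Pcp2* (732 bases), *Rgs7* (1364 bases) and *Lrit3* (1628 bases) to the shortest. *Gng13* had the lowest difference of the 10 and *Gpr179* the highest, whereas *Prkca* of the longest group did not pass and *Lrit3* of the shortest group did. The part of length in the result was not tested.

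Within genotypes the 10 genes mostly varied together over the 11 libraries, a description in which all points share library, depth and series. After subtraction of each genotype's mean, 44 of the 45 pairs had a positive Pearson correlation, with a median of 0.660. The difference between the series was not taken out of these values, and the share over pairs of all genes was not computed. The highest was that of *Lrit3* and *Gnao1* (r = 0.963) and the lowest that of *Rgs7* and *Gng13* (r = -0.033). Against the mean of the other genes, *Gpr179* followed most closely (r = 0.924) and *Gng13* least (r = 0.339). On that centred scale the mean of the 10 genes was highest in KO replicate 5 (0.23) and lowest in KO replicate 1 (-0.21), and WT replicate 4 was the only library of the age series below 0 (-0.10).

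**Figure D5:**
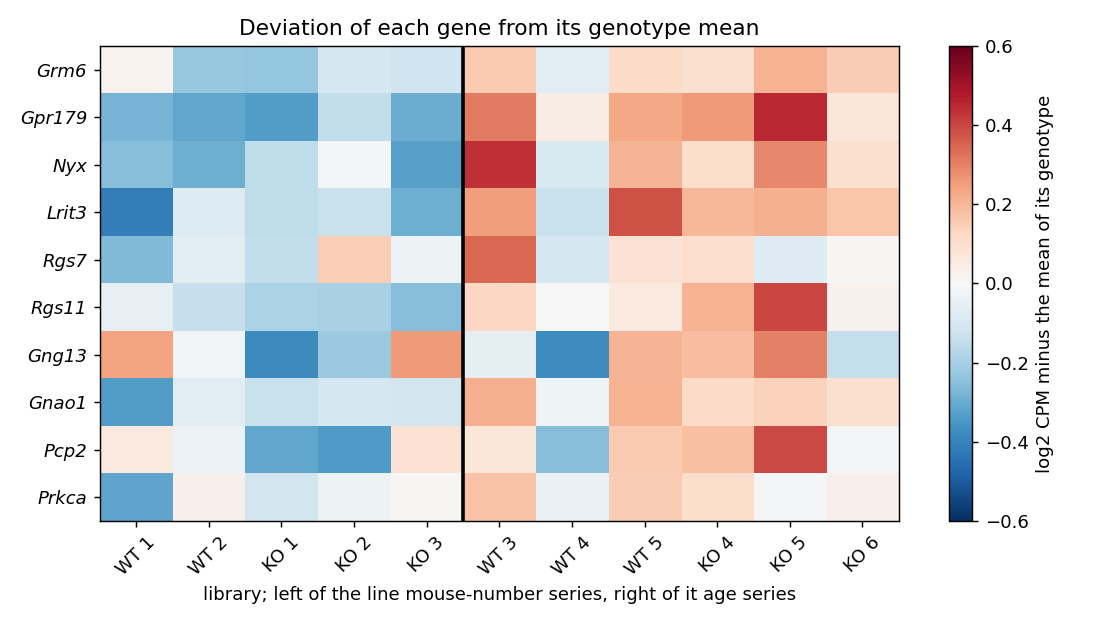
Log2 CPM of each gene minus the mean of its genotype, with the 5 libraries of the mouse-number series left and the 6 of the age series right of the line. Most cells are below 0 (blue) on the left and above 0 (red) on the right. Most of the cells that depart from this lie in WT replicate 4 or in the rows of *Gng13*, *Pcp2*, *Rgs7* and *Prkca*.

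The 5 genes outside the list whose centred levels were closest to the mean of the 10 genes were *Lrp11* (r = 0.998, rho = 0.964), *Gad1* (r = 0.993, rho = 0.964), *Mpp2* (r = 0.990, rho = 0.936), *Dpp6* (r = 0.989, rho = 0.964) and *Syt1* (r = 0.988, rho = 0.991) over 11 libraries. *Gad1* makes the transmitter GABA in amacrine cells and *Syt1* is a calcium sensor of synaptic vesicles. These genes were picked as the highest of all tested genes, and no p is given for them.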

How the data were processed

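RNA of whole eyes without lens and cornea was read as 100-nt pairs in 5 WT and 6 KO libraries. The authors deposited the expected count of each Gencode M4 gene, as estimated by RSEM 1.2.19 (per the labels) without scaling to library size, and an FPKM value that RSEM scaled by effective length and library. Symbols, positions and UTRs were taken from Gencode M21 (GRCm38), and microRNA and promoter sequences from RefSeq (GRCm38.p6).

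Expected counts were rounded. The genes that reached 1 CPM in 5 or more of the 11 libraries were tested with edgeR 4.0.16 in R 4.3.3 (TMM scaling, estimateDisp, glmFit, glmLRT, genotype as the only term), with Benjamini-Hochberg adjustment over all of them and a threshold of 0.1, as in the study's methods. Library totals were between 20282241 and 36317673 counts. CPM were computed on TMM-scaled totals, and a prior count of 2 was added for log2 CPM. Intervals (95%) are Wald intervals. FPKM values were used for levels between genes and for no test. Likeness to the 10 genes was read from log2 CPM centred within genotype.

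The 10 genes, the 16 gene lists and the tests were chosen with earlier results of these data known, and the lists were written from general knowledge. Genes named beside the 10 are *Trpm1*, *Mir211*, the genes of the lists with an adjusted p under 0.1 or the lowest or highest fold change, the 5 most alike genes, and any gene called over the whole table. *Bhlhe23* and other list genes with a call between library series were named by the same threshold in that comparison. *Gnb3* was also named there after its values were seen. The library series was read from the kinds of column names in the study's spreadsheet (coefficient of variation of the ratio of counts at most 0.201% for the matched column and at least 24.5% for the next), and its comparison was added after the data had been seen.

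Whether same-numbered WT and KO libraries belong together was checked by the correlation of their deviations from the group means, and the fits shown have no block. The calculations were tested on simulated data. The tests were repeated with DESeq2 1.42.0 and with the quasi-likelihood method of edgeR, and with other scalings (upper quartile, none, rod markers), other filters (at least 1 count in any library, at least 10 in every library), unrounded counts, a threshold of 0.05, a replicate block, the library series as a term or each series alone, and each library left out. Sex per library is not in the labels and entered no fit. Some items are not reported here.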

Additional observations from a re-analysis of the deposited data

How the results depend on the processing

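In none of 24 alternatives was any of the 10 genes called between KO and WT, and the lowest unadjusted p in any of them was 0.059 (*Pcp2*). Their median log2 fold change lay between -0.05 and 0.08 with single libraries left out, and was 0.06 within the age and 0.04 within the mouse-number series. The number of all genes called was 1, and it was 0 with the quasi-likelihood test, 2 with DESeq2, 2 with a filter of at least 1 count in any library, 10 with the library series as a term, 7 within the mouse-number series, 38 within the age series, and 1 to 11 with single libraries left out, with 11 without KO replicate 1 and 2 without WT replicate 2. The causes were not tested.

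Since most log2 fold changes of the 10 genes were near 0, their signs turned under several alternatives, while the lowest adjusted p in any of them was 0.839 (*Pcp2*). With upper-quartile scaling *Gpr179* had 0.0084. Without TMM factors *Grm6* had 0.010, *Gpr179* 0.046, *Rgs7* 0.022 and *Rgs11* 0.0086. With rod scaling *Lrit3* had -0.048, *Gng13* -0.031, *Gnao1* -0.10, *Pcp2* -0.0034 and *Prkca* -0.0069. *Gpr179* had 0.00043 with a filter of at least 1 count in any library and 0.044 with the library series as a term. Within the mouse-number series *Gpr179* had 0.026, *Nyx* 0.055, *Rgs7* 0.15, *Gng13* -0.094 and *Pcp2* -0.062, and within the age series *Grm6* had 0.046, *Gpr179* 0.062 and *Rgs11* 0.10. With single libraries left out the values ran from -0.089 to 0.0049 for *Grm6*, -0.10 to 0.079 for *Gpr179*, -0.15 to 0.044 for *Nyx*, -0.037 to 0.16 for *Lrit3*, -0.082 to 0.078 for *Rgs7*, -0.13 to 0.0076 for *Rgs11* and -0.065 to 0.066 for *Gnao1*, and kept their sign for *Gng13* (0.046 to 0.18), *Pcp2* (0.053 to 0.20) and *Prkca* (0.034 to 0.15).

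Between the library series 6 of the 10 genes were called, and 0 with rod scaling, where *Grm6* had -0.038, *Rgs7* -0.14, *Gng13* -0.24, *Pcp2* -0.071 and *Prkca* -0.12. The count was 7 with DESeq2, 5 without TMM factors and 4 to 7 with single libraries left out, where *Gng13* had -0.037 to 0.13.

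With the replicate number as a block, which leaves out KO replicate 6, 10 of all genes and none of the 10 pathway genes were called, with a median of -0.0055. Whether the numbers pair the libraries was not settled. The correlation of same-numbered pairs ran from -0.33 to 0.63, with a mean of 0.22 against -0.055 for different numbers. Of 5 libraries 3 correlated best with their own number. WT replicate 3 and KO replicate 3 belong to different series, and the libraries of each other pair to the same series. Number and series are thus mixed in this check. TMM-scaled FPKM moved the WT mean of each of the 10 genes by less than its SD, and a window of the last 100 bases before the start also held no TAATCC.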
